A study of Mus musculus with 7 samples.

Results

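The forkhead genes are the 43 protein-coding mouse genes whose symbols are Fox, a letter from a to s and a number, out of 21887 protein-coding genes on the nuclear chromosomes of the RefSeq table for GRCm38.p6, the assembly also called mm10. All 43 had a position in the table and all are counted below. They were examined in a ChIP-seq study of pooled wild-type mouse branchial arches at 10.5 dpc (days after mating). These arches are the swellings under the embryonic head that build parts of the face, neck and great vessels. The samples comprise input (libraries BA1 and BA2), an IgG control (BA1), and precipitates of β-catenin (BA1 and BA2) and Pygo2 (BA1 and BA2). The labels state neither what separates BA1 from BA2 nor strain or sex. The values come from peaks of the β-catenin BA2 library (1079 peaks from 13672937 tags) and the Pygo2 BA2 library (7150 peaks from 15009636 tags), which both have the IgG BA1 library as their control according to the headers. With 1 library per protein there is no replicate error and no test, so counts are descriptions of these libraries. A peak list holds no expression values, so neither the tissue nor the activity of a gene could be checked in it.

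Forkhead proteins bind DNA through a winged helix domain, and the family includes pioneer factors of the endoderm, regulators of head and heart mesenchyme, effectors of insulin signalling and cell cycle regulators. Foxc1 and Foxc2 are needed for the arch arteries and the outflow tract of the heart. In canonical Wnt signalling, β-catenin carries the signal to target genes, where Bcl9 ties it to the PHD-finger protein Pygo2. Forkhead factors meet this pathway at several points: FoxO proteins can bind β-catenin, and Foxk1 and Foxk2 can carry Dishevelled into the nucleus.

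A Pygo2 peak covered the start of Foxc1, and another lay just upstream of the start of Foxp4. These were the members with a promoter window touched by a peak. RefSeq promoter windows, from 250 bases before to 50 after a start, were at hand for 27 of the 43 members. Windows were missing for Foxh1, Foxm1, Foxn2 and Foxo6, whose nearest Pygo2 peaks were centred 32 to 581 bp from the gene's end. The shares over the 27 leave these genes out and do not describe the whole family. A Pygo2 peak overlapped the window of 2 of these 27 (7.41%), against 12.5% of 17492 protein-coding genes with a window. A β-catenin peak overlapped none of the 27, against 1.19% of genes. Both windows are printed up to base 30 after the start, 5′ to 3′ on the strand of the gene, because they are the member promoter windows that a peak overlapped. Capitals mark the bases under the Pygo2 peak. The Foxc1 sequence is chr13:31806396-31806675 (plus strand) and the Foxp4 sequence chr17:47924603-47924882 (minus strand), both on GRCm38.p6.
Foxc1: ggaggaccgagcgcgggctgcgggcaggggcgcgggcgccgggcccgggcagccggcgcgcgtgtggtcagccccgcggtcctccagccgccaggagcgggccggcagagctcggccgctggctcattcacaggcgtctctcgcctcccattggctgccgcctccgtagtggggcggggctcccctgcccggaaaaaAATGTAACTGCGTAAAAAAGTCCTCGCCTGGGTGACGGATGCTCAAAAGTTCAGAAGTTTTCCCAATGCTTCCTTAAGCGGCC
Foxp4: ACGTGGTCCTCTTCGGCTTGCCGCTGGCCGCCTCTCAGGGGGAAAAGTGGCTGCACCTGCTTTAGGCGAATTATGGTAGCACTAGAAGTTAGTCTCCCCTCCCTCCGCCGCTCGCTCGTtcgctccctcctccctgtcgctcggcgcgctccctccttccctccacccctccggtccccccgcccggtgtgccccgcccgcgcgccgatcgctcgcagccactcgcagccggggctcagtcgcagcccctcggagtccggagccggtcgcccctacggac
In Foxc1 the peak began upstream of the start and ran into the gene, so 83 of the 280 bases shown lay under it. In Foxp4 it lay wholly upstream of the start, with 119 bases under it at the far end of the stretch. The stretches hold 30 and 32 CpG dinucleotides. The GC content of the windows was 67.3% in Foxc1 and 70.3% in Foxp4, against medians of 62.7% over the 27 members and 56.3% over all 17492 genes.

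Motif letters were searched on both strands of the windows. Neither CTTTGAT nor CTTTGAA, 2 forms of the site of the Wnt factors TCF and LEF, was in the Foxc1 or Foxp4 window, and neither were the forkhead motifs TGTTTAC and TGTTTGC. The TCF/LEF forms share their first 6 letters and the forkhead forms their first 5, and only exact matches were counted. CTTTGAT was found in 1 of 27 members (Foxa2), against 3.74% of genes, and CTTTGAA in 1 (Foxp1), against 5.32%. TGTTTAC was found in Foxa1, against 3.45% of genes, and TGTTTGC in Foxj3 and Foxp1, against 5.29%. No window with one of these motifs had a peak over it.

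Across the family, the share with a Pygo2 peak was near that of all genes at 1 and 50 kb and higher at 100 kb. The β-catenin peaks were few. Each distance runs between a peak's centre and whichever end of the gene is closer. A Pygo2 peak lay within 1 kb of 8 of the 43 members (18.6%), against 16.5% of all protein-coding genes. Within 50 kb it was 22 members (51.2%), against 45.8%, and within 100 kb 30 members (69.8%), against 57.3%. A β-catenin peak lay within 1 kb of 0 members, against 2.01% of all genes. Within 50 kb it was 2 members (4.65%), against 10.9%, and within 100 kb 4 members (9.30%), against 17.0%. The median distance to the nearest Pygo2 peak was 43.6 kb for members and 64.7 kb for all genes, and to the nearest β-catenin peak 929.0 kb and 645.0 kb. The members are short genes (median 5.59 kb, against 17.2 kb) with few neighbours: a median of 2 other protein-coding genes reached within 50 kb, against 3. Members with a Pygo2 peak within 50 kb had a median of 2.5 such neighbours and those without 1, and over all genes the medians were 3 and 2. The part of gene length and neighbours in these counts was not tested.

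**Figure D1:**
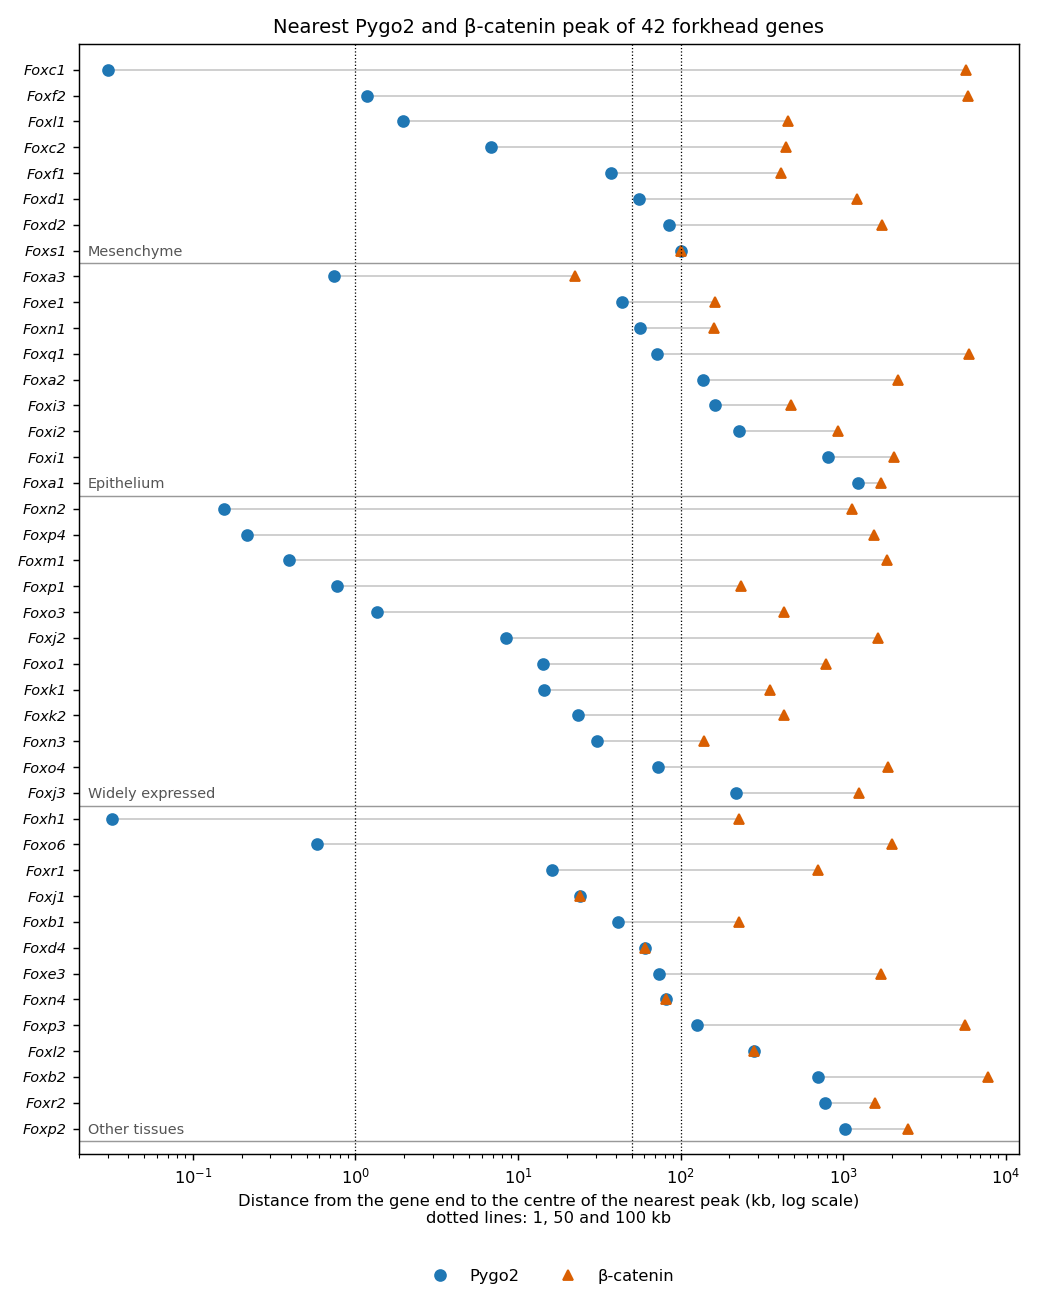
Distance in kb (log scale) from the nearer end of 42 forkhead genes to the centre of the nearest Pygo2 peak (circles) and β-catenin peak (triangles), with genes grouped by role and dotted lines at 1, 50 and 100 kb. Circles lie left of the 50 kb line for 22 genes and triangles for 2, Foxa3 and Foxj1.

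Not every peak in the window was close to the forkhead gene alone. The 22 members drew on 40 distinct Pygo2 peaks within 50 kb. For 23 of these the nearest gene end was that of a forkhead gene, and for 17 it belonged to another gene, within 1 kb in 12 cases. With each peak given only to the gene with the nearest end, 15 of the 43 members kept a Pygo2 peak (34.9%), against 21.9% of all genes under the same rule, and 0 kept a β-catenin peak, against 3.68%. Peaks nearest to a member stood later in the deposited Pygo2 list (median at 59.8% of the list) than those in the window that were nearest to another gene (median 32.5%). The 2 groups also differed in place: 8 of the 23 lay within 1 kb of a member's end, and 12 of the 17 within 1 kb of another gene's end. The part of this in the medians was not tested, and no such medians were taken over all genes. The headers do not state how the list is ordered, and the deposited score is 1 for every peak.

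**Figure D2:**
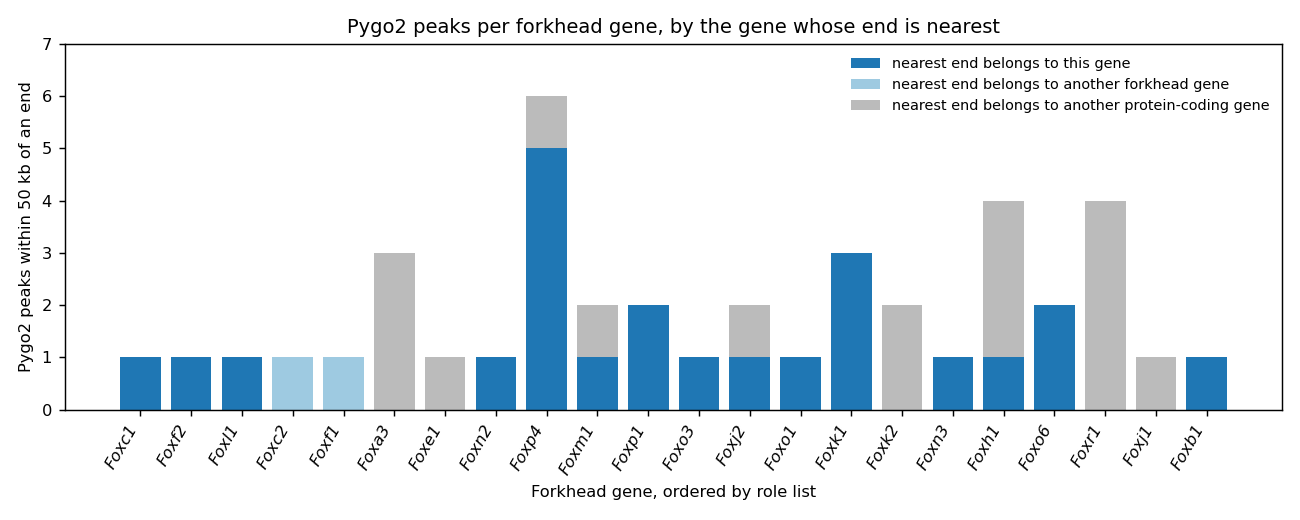
Number of Pygo2 peaks within 50 kb of an end (vertical axis) for the 22 forkhead genes that had one, ordered by role list. Colours give the gene whose end is nearest to the peak; Foxp4 has 6 peaks, 5 of them nearest to itself, whereas all peaks of Foxa3, Foxr1, Foxk2, Foxe1 and Foxj1 are nearest to genes outside the family.

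Of the members known for mesenchyme of the head, arches or mesoderm, Foxc1 had a Pygo2 peak at its start, and Foxf2, Foxc2, Foxl1 and Foxf1 had one within 50 kb. Of this list of 8, 1 had a Pygo2 peak within 1 kb (12.5%, against 16.5% of all genes), 5 within 50 kb (62.5%, against 45.8%) and 7 within 100 kb (87.5%, against 57.3%). None had a β-catenin peak within 100 kb, against 17.0% of all genes. Foxc1 (chromosome 13, 31806646 to 31810635) carried a peak at 31806593 to 31806759, with its centre 30 bp inside the gene. It stood at position 4611 of 7150 in the list, and the nearest end of another protein-coding gene, Gmds, was 12.9 kb away. No β-catenin peak was nearer to Foxc1 than 5696 kb. Foxf2, which acts in palate and gut mesenchyme, lies on the same chromosome at 31625816 to 31631406, and had a Pygo2 peak 1.18 kb past its 3′ end (31632504 to 31632670). The same peak was the nearest one to Foxq1, at 71.6 kb. Within 100 kb of the 3 members of this cluster lay these 2 Pygo2 peaks and no other.

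The second cluster, on chromosome 8, joins Foxf1 (121084386 to 121088154), a regulator of lung and gut mesenchyme, with Foxc2 (121116171 to 121118895) and Foxl1 (121127685 to 121130644). Its Pygo2 peak at 121125633 to 121125799 lay in the 8.79 kb between Foxc2 and Foxl1, 6.82 kb from Foxc2, 1.97 kb from Foxl1 and 37.6 kb from Foxf1. The count of 3 members at 50 kb in this cluster therefore rests on 1 peak. A further peak at 121180954 to 121181120 was 50.4 kb from Foxl1, just outside the window, and 62.1 kb from Foxc2. The nearest β-catenin peak was 416.0 kb from Foxf1, 448.0 kb from Foxc2 and 460.0 kb from Foxl1. Counted as loci, with members closer than 200 kb joined, the family forms 38 loci, of which 19 had a Pygo2 peak and 2 a β-catenin peak within 50 kb. Loci were not formed over all genes, so these counts have no share beside them. Foxc1 and Foxc2, close relatives in sequence and function, thus differed in where the peak lay: at the start of Foxc1, and in the gap beside Foxc2.

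**Figure D3:**
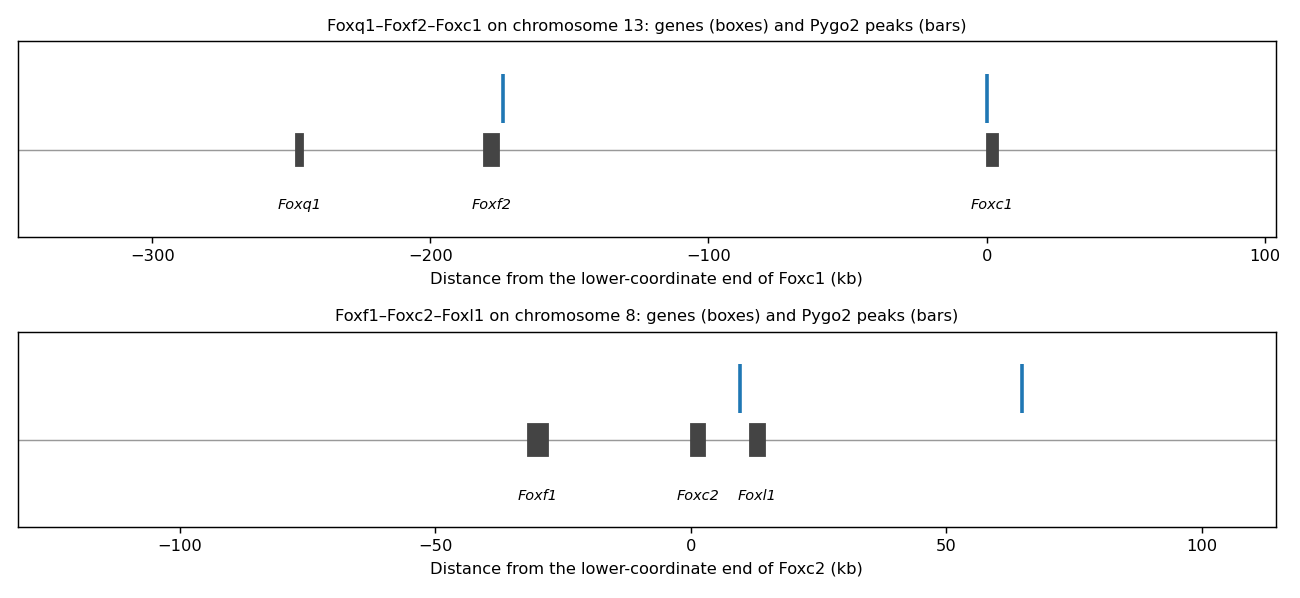
Forkhead genes (boxes) and Pygo2 peaks (bars) in the clusters of Foxc1 on chromosome 13 and Foxc2 on chromosome 8, by distance in kb from the lower-coordinate end of Foxc1 or Foxc2. Other genes are not drawn. A bar stands at the start of Foxc1, past the end of Foxf2, between Foxc2 and Foxl1, and beyond Foxl1; no β-catenin peak lies within 100 kb of these genes.

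The remaining mesenchymal members were farther from any peak. Foxd1, a gene of kidney stroma and head mesenchyme, had its nearest Pygo2 peak at 55.2 kb, where Gm21976 was nearer. Foxd2 had peaks at 84.4 kb and 91.3 kb, the latter 0.135 kb from Stil. It lies 15.5 kb from Foxe3, a lens gene, and that peak near Stil was also the nearest one to Foxe3, at 74.2 kb. Foxs1 had its nearest Pygo2 peak at 100.1 kb and its nearest β-catenin peak at 100.8 kb, both beside Bcl2l1 and just beyond the widest window.

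Members known for pharyngeal endoderm, ectoderm, thymus or thyroid had Pygo2 peaks at lower shares than all genes. Of 10, 1 had a Pygo2 peak within 1 kb (10.0%, against 16.5% of all genes), 2 within 50 kb (20.0%, against 45.8%) and 4 within 100 kb (40.0%, against 57.3%). No peak in these windows was nearest to the member itself, whereas 21.9% of all genes kept a Pygo2 peak under that rule at 50 kb. A β-catenin peak lay within 1 kb of 0 members of this list, against 2.01% of all genes. Within 50 kb and within 100 kb it was 1 member (10.0%, against 10.9% and 17.0%). The median distance to the nearest Pygo2 peak was 150.0 kb, against 64.7 kb for all genes and 22.2 kb in the mesenchymal list. Foxa3, a liver and gut endoderm factor (chromosome 7, 19013283 to 19023539), had a Pygo2 peak 739 bp upstream of its start at 19024195 to 19024361. That peak was 99 bp from an end of Sympk, and the other Pygo2 peaks within 50 kb of Foxa3 were nearest to Irf2bp1 and Mypop. Foxe1, needed for thyroid and palate, had a peak at 43.6 kb that was 4.22 kb from Trmo. Foxn1, the thymus epithelium regulator, had one at 56.4 kb, 0.253 kb from Spag5. Foxa2, Foxa1, Foxi1, Foxi2 and Foxi3 had no peak of either protein within 100 kb. The nearest Pygo2 peaks were at 137.0 kb for Foxa2, a pioneer factor of endoderm and floor plate, and 1240 kb for Foxa1. For the ectodermal FoxI genes they were at 164.0 kb (Foxi3), 228.0 kb (Foxi2) and 804.0 kb (Foxi1).

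Widely expressed members had Pygo2 peaks most often among the 4 role lists. Of 12, 4 had a Pygo2 peak within 1 kb (33.3%, against 16.5% of all genes), 10 within 50 kb (83.3%, against 45.8%) and 11 within 100 kb (91.7%, against 57.3%). Under the nearest-gene rule at 50 kb, 9 of the 12 kept a Pygo2 peak, against 21.9% of all genes. For β-catenin the count at 100 kb was 0 of 12, against 17.0% of all genes. The difference between the role lists was not tested. Genes of this list are long, with a median of 59.0 kb against 2.84 kb for the mesenchymal, 4.04 kb for the epithelial and 4.80 kb for the other-tissue list. A long gene has ends far apart, so its windows of 50 and 100 kb cover more sequence. The part of length in these counts was not tested.

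Foxp4 had more Pygo2 peaks than any other member within 50 kb. This FoxP repressor gene (chromosome 17, 47867133 to 47924632) had 6 peaks within 50 kb and 9 within 100 kb. One lay 215 bp upstream of the start (47924764 to 47924930), and another 245 bp past the 3′ end (47866805 to 47866971). A further peak followed 2.45 kb past the 3′ end, and 2 lay inside the gene at 12.8 and 25.8 kb from its ends. Its paralogue Foxp1, a heart and lymphocyte regulator (chromosome 6, 98925342 to 99522746), had a Pygo2 peak 770 bp outside its start side at 99523433 to 99523599. Within the 597 kb of Foxp1 lay 2 more Pygo2 peaks, 45.6 and 143.0 kb from an end, and 1 β-catenin peak (99161842 to 99162010), 237.0 kb from an end. Foxp2, a gene of brain circuits, had no Pygo2 peak closer than 1030 kb, and Foxp3, the regulatory T cell factor, none closer than 127.0 kb. The FoxP genes thus split into 2 with a Pygo2 peak within 1 kb and 2 with none within 100 kb. In all, 5 of the 43 members had 3 or more Pygo2 peaks within 50 kb (11.6%), against 12.1% of all genes: Foxp4, Foxk1, Foxa3, Foxh1 and Foxr1.

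Foxn2, Foxm1 and Foxo3 also had Pygo2 peaks at or close to an end. Foxn2 had its peak 156 bp outside its lower-coordinate end (chromosome 17, 88440465 to 88440631), with the next gene, Ppp1r21, 89.6 kb away. Foxm1, which drives genes of mitosis, had a peak 389 bp inside one end (chromosome 6, 128363300 to 128363466). An end of Rhno1 was 472 bp from that peak, so it lay at both genes. Foxo3, an effector of insulin and stress signalling, had a peak 1.35 kb upstream of its start (chromosome 10, 42277965 to 42278131), just outside the 1 kb window, at position 751 of the list. Its relative Foxo1 had one 14.2 kb upstream, at position 6744, and Foxo4 had its nearest at 72.4 kb.

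The Foxk genes differed in what else lay beside their peaks. Foxk1 had 3 Pygo2 peaks within 50 kb, at 14.5, 29.6 and 33.9 kb, and Foxk1 was the nearest gene to each. Foxk2 had 2, at 23.3 and 30.8 kb upstream, which were 0.504 kb from Narf and 0.140 kb from Cybc1. Foxj2 had peaks 8.40 and 9.50 kb upstream, the latter 8.32 kb from Slc2a3, and Foxj3 had none closer than 219.0 kb. Foxn3 held a Pygo2 peak 30.6 kb inside one end and a β-catenin peak 139.0 kb inside (chromosome 12, 99329259 to 99329427). A β-catenin peak lay inside 2 members, Foxp1 and Foxn3 (4.65%), against 2.47% of all genes. A Pygo2 peak lay inside 7 members (16.3%), against 15.0%. With peaks inside the gene added to those within 50 kb, the count was 22 members for Pygo2, against 46.5% of all genes, and 4 for β-catenin, against 11.2%. Foxp1 and Foxn3 are among the 3 longest members, at 597 and 374 kb.

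Of 13 members known mainly for other tissues, 2 had a Pygo2 peak within 1 kb (15.4%), 5 within 50 kb (38.5%) and 8 within 100 kb (61.5%). These shares are near the 16.5%, 45.8% and 57.3% of all genes. A β-catenin peak lay within 1 kb of 0 of the 13 (against 2.01%), within 50 kb of 1 (7.69%, against 10.9%) and within 100 kb of 3 (23.1%, against 17.0%). Foxh1, the Smad partner of Nodal signalling (chromosome 15, 76667829 to 76671614), had a peak 32 bp inside one end at 76671499 to 76671665. An end of Ppp1r16a lay 61 bp from the centre of that peak, and the other 3 Pygo2 peaks within 50 kb were nearest to Tonsl or Mfsd3. Foxo6, a FoxO gene of the brain (chromosome 4, 120267078 to 120287261), had a peak 581 bp outside its upper-coordinate end, with no other protein-coding gene end closer than 117.0 kb. Foxb1 had a peak at 41.5 kb that was nearest to itself. Foxr1 had 4 peaks within 50 kb that were nearest to Ccdc84 (1 peak) or Bcl9l (3 peaks), and Bcl9l encodes a protein that links Pygo2 to β-catenin. Thus, of the 8 members with a Pygo2 peak within 1 kb, Foxa3, Foxh1 and Foxm1 shared it with the end of another gene. The other 5 (Foxc1, Foxn2, Foxo6, Foxp1 and Foxp4; 11.6%) did not, against 11.1% of all genes.

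The few β-catenin peaks within 100 kb of a forkhead gene end were all nearer to other genes. There were 5 such peaks, near Foxa3, Foxj1, Foxd4 and Foxn4. Over all genes too, most with a β-catenin peak within 50 kb (10.9%) did not keep one under the nearest-gene rule (3.68%). That rule was not applied to all genes at 100 kb. At Foxa3 the β-catenin peak (chromosome 7, 18990790 to 18990958) was 22.4 kb from the gene and 0.366 kb from Mypop, and a Pygo2 peak stood at 18991086 to 18991252. At Foxj1, the master gene of motile cilia, the β-catenin peak (chromosome 11, 116306636 to 116306804) was 24.0 kb away and 0.030 kb from Exoc7, and a Pygo2 peak stood at 116306736 to 116306902. A β-catenin peak 82.9 kb from Foxj1 (116418353 to 116418521) was 5.05 kb from Rnf157, with a Pygo2 peak at 116418359 to 116418525. At Foxd4 the β-catenin peak was at 60.7 kb (chromosome 19, 24961591 to 24961759), 0.012 kb from Cbwd1, with a Pygo2 peak at 24961725 to 24961891. At Foxn4, a retinal and spinal gene, it was at 81.0 kb (chromosome 5, 114173039 to 114173207), nearest to Acacb, with a Pygo2 peak at 114173037 to 114173203. Both lists had the same 1 IgG library as control. At these neighbouring positions a part of the shared control cannot be told apart from a part of the 2 proteins, and neither was tested. Peaks of both proteins, overlapping or not, were within 1 kb of 0 members (1.35% of all genes), within 50 kb of 2 (4.65%, against 8.99%) and within 100 kb of 4 (9.30%, against 15.0%). Overlapping peaks were within 1 kb of 0 members (0.795% of all genes), within 50 kb of 1, Foxj1 (2.33%, against 4.00%), and within 100 kb of 3 (6.98%, against 6.31%). These shares lay at or below those of all genes except the last, and with 1 to 4 members they rest on single peaks.

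No peak of either protein lay within 100 kb of an end, or inside the gene, for 13 members (30.2%), against 40.3% of all genes. Among them were Foxa1, Foxa2, Foxb2, Foxi1, Foxi2, Foxi3, Foxj3, Foxl2, Foxp2, Foxp3, Foxr2 and Foxs1. They include genes of neural tissue (Foxp2, Foxb2), ovary (Foxl2) and regulatory T cells (Foxp3), and also endodermal and ectodermal genes of the pharynx. A position without a peak is one that did not pass every calling threshold in that library. These include at least 10 tags for Pygo2 and 11 for β-catenin, and an excess over IgG that removed 12515 of 21859 putative Pygo2 peaks and 2837 of 4036 putative β-catenin peaks. Missing peaks therefore do not show that a protein was absent.

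Other families of developmental transcription factors were counted in the same way. A Pygo2 peak was within 50 kb of 51.2% of the forkhead genes, of 56.2% of 16 T-box genes, of 57.9% of 19 Sox genes and of 33.3% of 39 Hox genes. For β-catenin the shares at 50 kb were 4.65%, 6.25%, 5.26% and 28.2%. With each β-catenin peak given only to the gene with the nearest end, the counts at 50 kb were 0 of 43 forkhead, 0 of 16 T-box, 1 of 19 Sox and 1 of 39 Hox genes. The share of all genes under that rule was 3.68%. Hox genes sit in clusters, and the part of clustering in these shares was not tested. These differences between families were not tested.

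**Figure D4:**
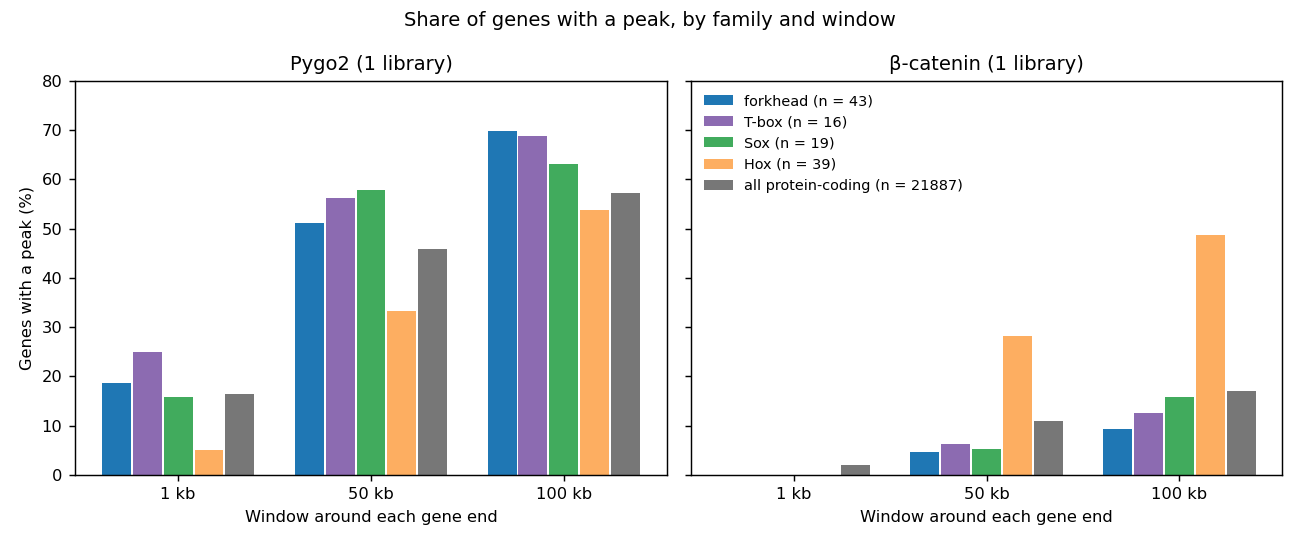
Share of genes (%) with a Pygo2 peak (left) or β-catenin peak (right) within 1, 50 and 100 kb of an end, for forkhead, T-box, Sox, Hox and all protein-coding genes; each bar is a share in 1 library, with no error bar. The forkhead bar for Pygo2 stands at 18.6%, 51.2% and 69.8%, and for β-catenin at 0, 4.65% and 9.30%.

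Genes known as regulators, partners or targets of forkhead factors in the arches and outflow tract were also counted. Of 20 such genes, 1 had a Pygo2 peak within 1 kb (5.00%, against 16.5% of all genes), 10 within 50 kb (50%, against 45.8%) and 14 within 100 kb (70.0%, against 57.3%). A β-catenin peak was within 1 kb of 0 (against 2.01%), within 50 kb of 3 (15.0%, against 10.9%) and within 100 kb of 4 (20.0%, against 17.0%). Overlapping peaks of both proteins were within 50 kb of 0 (against 4.00%) and within 100 kb of 1 (5.0%, against 6.31%). In the plain 50 kb window the Pygo2 share was thus close to that of all genes, but other Pygo2 counts were higher. With each Pygo2 peak given only to the gene with the nearest end, 8 of 20 kept one at 50 kb (40.0%, against 21.9%). Inside the gene, 6 of 20 had a Pygo2 peak, against 15.0% of all genes. These differences were not tested. The peak within 1 kb was at Gli2, a Hedgehog effector, with 2 peaks there and the nearest 0.322 kb from an end. Within 50 kb Notch1 had 4 Pygo2 peaks, and Ptch1, Gli1, Bmp4 and the Notch ligand gene Dll4 had 2 each. Tbx1, the arch and outflow tract regulator, had a Pygo2 peak at 17.6 kb and a β-catenin peak at 39.6 kb. Fgf8 had them at 6.65 and 40.9 kb, Dll4 at 2.18 and 36.9 kb, and Msx1 at 71.3 and 71.4 kb. With each β-catenin peak given only to the gene with the nearest end, 0 of 20 kept one at 50 kb, against 3.68% of all genes. Mef2c, a Foxh1 target in the anterior heart field, had a Pygo2 peak at 14.4 kb, and Hand2 one at 29.3 kb. Shh, Gli3, Isl1, Fgf10, Hey2 and Msx2 had no peak of either protein within 100 kb.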

How the data were processed

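Branchial arch cells were cross-linked with EGS and formaldehyde, per the labels' protocols. Bowtie, Bowtie2, HOMER and mm10 are named, without versions, per the submitters' processing notes. The authors called peaks with HOMER findPeaks in factor style, 1 library per list with no pooling, per the file headers. A peak needed a false discovery rate of 0.001 on tags, a 2-fold excess over IgG and over the 10000 bp around it, and a Poisson p-value of 1e-04 in each. Depth was 15009636 tags for Pygo2 and 13672937 for β-catenin. The deposited score is 1 in every row, so only positions were used.

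Distances, overlaps (at least 1 bp) and counts within 1, 50 and 100 kb were computed in Python 3.11.15 with NumPy 2.4.6 and pandas 2.3.3, and plots drawn with Matplotlib 3.10.9. Positions are 1-based. Each library formed its own group. Counts over all 43 genes have no sampling interval, and no test was made. Which end of a gene is its start follows the strand in the RefSeq promoter table (27 members), and elsewhere ends are not told apart. Distances to a start run to the outer end of the gene, which can differ from the start of a promoter window. Exons, introns and UTRs were not told apart. On simulated data, 200 of 200 planted distances were recovered. The rule left out 1 gene of the symbol pattern, and 1 member is counted but its own values are not reported here.

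Named were members with a peak within 1 kb, with a β-catenin peak within 100 kb, with 3 or more Pygo2 peaks within 50 kb or in a cluster with a peak, and Foxc1 and Foxc2; others were named to complete a list. Members, role lists and rules were chosen with earlier results of these data known. Alternatives covered the window, the earlier part of the list, peaks inside genes, nearest genes, clusters, gene end peaks and the overlap rule.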

Additional observations from a re-analysis of the deposited data

How the results depend on the processing

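The number of forkhead genes with a Pygo2 peak was 22 of 43 at 50 kb, against 45.8% of all genes. It was 30 at 100 kb (against 57.3%), 22 with peaks inside the gene (against 46.5%) and 15 with nearest genes only (against 21.9%). The number fell to 8 with a window of 1 kb (against 16.5%). It was 16 with the earlier 50% of the list, 18 of 38 with 1 member per locus and 16 without peaks at gene ends. These settings were not counted over all genes. The 18 takes 1 member for each locus, whereas 19 loci had a peak near any member. The β-catenin count of 2 (against 10.9% of all genes) became 4 at 100 kb (against 17.0%) and 4 with peaks inside the gene (against 11.2%). It was 0 at 1 kb (against 2.01%) and with nearest genes only (against 3.68%). It was also 0 with the earlier 50% of the list and without peaks at gene ends, which were not counted over all genes. The overlapping-peak count of 1 (against 4.00% of all genes) became 3 at 100 kb (against 6.31%) and 0 at 1 kb (against 0.795%). It was 2 with centres within 500 bp. It was 0 with the earlier 50% of the list, with nearest genes only, without peaks at gene ends and with an overlap of 50% of the β-catenin peak. The settings given without a share were not counted over all genes for overlapping peaks. Counts of 1 and 2 genes move with single peaks. No paired analysis was possible because each protein has 1 peak list. No replicate could be left out for the same reason. The list order carries no stated meaning, and positions under 10 (Pygo2) or 11 (β-catenin) tags could not be called.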
